A study of Mus musculus with 2 samples.

Results

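CTCF sites inside coding exons were taken from ChIP-seq of newborn mouse stomach. ChIP-seq sequences the DNA that an antibody recovers with a protein, here CTCF. The tissue was stomach of strain B6NCrl at postnatal day 0, with no treatment or altered allele named in the labels. There was 1 group of 2 samples, which the labels number as biological replicates 1 and 2. The labels also give both the same donor and tissue sample, so the spread between them may be technical. Sex was not collected, and control libraries are not analysed here. The whole tissue holds epithelium, muscle, nerve, vessels and blood, so a peak cannot be assigned to a cell type. The authors' optimal list was made from replicates 1 and 2 by IDR, a method that compares peak ranks. Its peaks need not rank alike in both, as given below. A coding-exon peak was defined as a peak of this list whose summit fell in coding sequence of a protein-coding gene. The summit also had to lie more than 2 kb from every protein-coding gene start (TSS) and more than 1 kb from every coding gene end. These were 1216 of the 74283 optimal peaks on chromosomes. In all, 2702 optimal summits lay in coding sequence, of which 1344 were set aside for a start within 2 kb and 142 for a gene end within 1 kb. The comparison sets under the same distances were 26612 intronic peaks and 27118 peaks outside coding genes.

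CTCF is a zinc finger protein that binds a long DNA motif with several of its fingers, and with cohesin it holds the anchors of chromatin loops and insulators. Most of its sites lie outside coding sequence. In a coding exon the same bases must serve both the protein code and the contact with CTCF, and the motif reads differently on the coding and the opposite strand. The motif matrix used below was built from optimal peaks outside coding sequence on chromosome 1, so no coding-exon peak shaped it. Its consensus was NNNCCACNAGNNGGCNNNN, in which a letter is given where 1 base exceeded a share of 0.6.

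Sites from 5 of the strongest coding-exon peaks with the motif are shown first, because they show how the site sits in coding DNA. Each run is 60 bases of the mouse reference (mm10), 5′ to 3′ on the strand of the motif, and capitals mark the 19 bases of the best match.
Def6: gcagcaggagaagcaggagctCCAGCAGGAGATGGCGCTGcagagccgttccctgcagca
Numa1: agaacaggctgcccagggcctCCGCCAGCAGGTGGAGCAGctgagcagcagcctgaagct
Tradd: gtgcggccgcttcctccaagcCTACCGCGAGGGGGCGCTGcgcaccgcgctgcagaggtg
Dglucy: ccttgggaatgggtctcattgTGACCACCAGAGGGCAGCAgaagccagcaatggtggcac
Nbeal2: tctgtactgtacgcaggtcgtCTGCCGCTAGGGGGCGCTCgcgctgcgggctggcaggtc
These lie at chr17:28226179-28226238 (plus strand), chr7:101998671-101998730 (plus), chr8:105259834-105259893 (minus), chr12:100841384-100841443 (minus) and chr9:110635402-110635461 (plus). The match reads along the coding strand in Def6, Numa1 and Tradd and against it in Dglucy and Nbeal2. Scores, in bits, were 12.4 in Def6, 15.6 in Numa1, 16 in Tradd, 23.7 in Dglucy and 19.2 in Nbeal2, so the strongest peak had the lowest match of the 5. In chromosome coordinates, the match centre lay at -26 bp from the summit in Def6. It lay at -4 bp in Numa1, 7 in Tradd, -1 in Dglucy and 1 in Nbeal2.

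One stretch of coding sequence recurred with a CTCF peak in the intermediate filament genes. These genes encode the keratins of epithelia, vimentin of mesenchyme, desmin of muscle and the glial protein GFAP. The stretch encodes the end of the protein's coiled rod, a part well conserved across the family, and the CTCF match reads on the strand opposite to the coding strand. The filament site carried a peak in 11 of 64 filament genes. Each gene's coding sequence was searched with a profile of the sites under peaks, a step added after the repeat among the peaks had been seen, so its count is a description. Signal, the authors' peak-caller value, is not scaled between lists and served to rank peaks within a list. Gfap had 256 in replicate 1 and 169.5 in replicate 2, and its summit lay 39 bp from the centre of the match. Krt75, a keratin of the hair follicle, had 137 and 92.8 in replicates 1 and 2. Krt77 had 93.9 and 58.9. Vim had 66.8 and 47.7, the fourth highest pair of the 11.

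Krt5, the keratin of basal squamous cells such as those of the forestomach, had 53.3 in replicate 1 and 23.2 in replicate 2. Krt4, a keratin of the upper squamous layers, had 36.4 and 23.6. Des was the weakest, with 20 in replicate 1 and 14.5 in replicate 2. Krt72 had 20.9 in replicate 1 and 24.7 in replicate 2. The listed value was higher in replicate 1 at the other 10 sites, as at 987 of the 1035 coding-exon peaks found in both, and the lists are not scaled to each other. The remaining sites were Krt82 (54.7 and 24.8), Krt79 (43.7 and 14.6) and Krt76 (27.8 and 15.6). All 11 were therefore found in both replicates.

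The filament site lay in coding exon 7 of 9 in all 8 keratins with a peak and in coding exon 6 of 9 in Vim, Des and Gfap. The match reached the motif threshold of 10.6 bits in 10 of the 64 genes, and 9 of those 10 had a peak. The exception was Krt2, with a score of 13.5, the same as in Krt4 and Des. The profile was built from filament-gene peaks with the motif, as those 9 were, so their match and peak followed from that choice. Of the 54 genes under the threshold, 2 had a peak: Krt77 with a score of 10.5 and Krt79 with 9.02. Krt7 and Krt73 also scored 9.02 and had no peak, so under the threshold equal scores occurred with and without a peak. Krt8, the keratin of simple epithelium, scored 5.14 and Krt1, a keratin of the epidermis, scored -3.93, both without a peak.

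Keratins on chromosome 15 other than Krt18, the type II keratins, had the peak in 8 of 23 genes. Keratins on chromosome 11 and Krt18, the type I keratins, had it in 0 of 26. Krt28, a type I keratin, had a coding-exon peak of signal 76.5 elsewhere in the gene. Over the 60 bases, 34 columns were identical in all 11 sites with a peak, and pairs of these sites shared 44 to 58 bases. Because the copies are alike, reads could be split or shared between them, and the placement of such reads was not stated by the authors. Signals of single copies are uncertain for that reason.

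**Figure D1:**
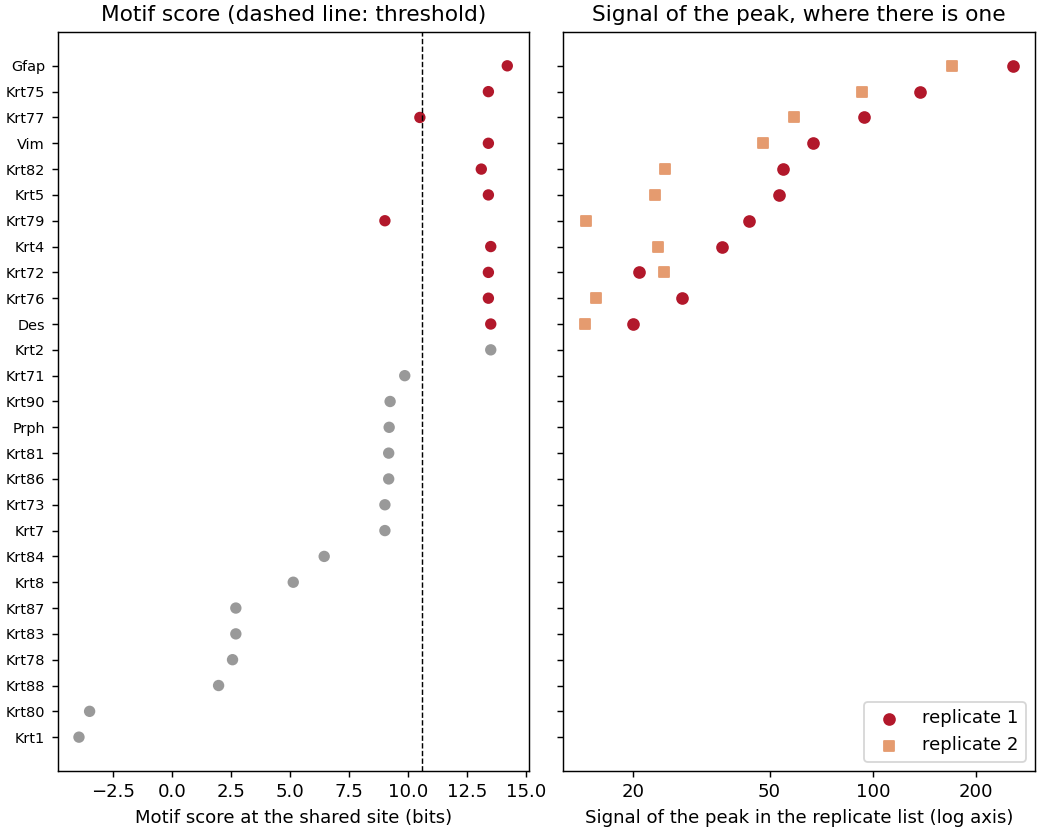
Motif score in bits at the homologous site (left, dashed line at the threshold of 10.6) and signal of the peak there in replicates 1 and 2 (right, log axis) for the chromosome 15 keratins other than Krt18 and for Gfap, Vim, Des and Prph. Red points at left are the 11 genes with a peak and grey points are genes without one. Krt2 is the gene over the threshold that has no peak.

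Sequence shared between coding-exon peaks of different genes was rare outside the filament genes. Hosts whose sites shared at least 5 words of 18 bases within 60 bp of the summit formed 5 groups. The chloride channel regulators Clca3b, Clca3a1 and Clca3a2 each had a peak in coding exon 13, with signals of 168, 48.8 and 38.9 in replicate 1 and 155, 26 and 31.7 in replicate 2. Csf2rb and Csf2rb2, which encode subunits of cytokine receptors, had peaks of 9.45 and 9.71 in replicate 2 and none among the 74283 strongest of replicate 1. Near-identical copies such as Clca3a1 and Clca3a2, which shared 54 words, may share reads.

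Smad1, Smad3 and Smad9 each had a coding-exon peak in the last coding exon. Smad1 and Smad9 carry signals of bone morphogenetic proteins, and Smad3 those of TGF-beta and activin. Smad9 had a signal of 181 in replicate 1 and 116 in replicate 2, in coding exon 5, with a match of 14.9 bits. Smad1 had a signal of 162 in replicate 1 and 112 in replicate 2, in coding exon 6. Smad3 had 118 in replicate 1 and 84.3 in replicate 2, in coding exon 9. The same 19 bases, with a score of 15.4, lay under the Smad1 and Smad3 peaks, while 44 of 60 bases were identical. Smad9 shared 17 of the 19 bases with either, and 51 of 60 with Smad1 and 41 of 60 with Smad3. It fell short of the 5 shared words, and was added after its values were seen. The match reads against the coding strand in all 3, and that of Smad1 and Smad3 is shown here on the motif strand with the match in capitals.
Smad1: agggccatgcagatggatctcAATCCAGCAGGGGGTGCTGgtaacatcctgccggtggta
Smad3: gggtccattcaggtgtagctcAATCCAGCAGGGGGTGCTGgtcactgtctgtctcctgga
Both runs are on the plus strand of mm10, at chr8:79339718-79339777 for Smad1 and chr9:63650331-63650390 for Smad3.

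The signal of coding-exon peaks ran from 5.59 to 538 with a median of 80.7, against a median of 74.3 for intronic peaks and 90.6 for peaks outside coding genes. In the replicate lists the median of coding-exon peaks was 55.4 in replicate 1 and 38.4 in replicate 2, and that of intronic peaks was 51.1 and 38.0. Coding-exon peaks exceeded intronic peaks at the lower quartile, with 37.3 against 34.9, and fell below them at the upper quartile, with 204 against 215. The ranges overlapped throughout, and the medians differed by far less than the spread among peaks. The weakest was in Smc6, a subunit of a chromosome maintenance complex, at 5.59, and it was in neither replicate's list of the 74283 strongest peaks.

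The strongest coding-exon peak lay in Def6, a signalling protein of lymphocytes, in coding exon 9 of 11 (chromosome 17, 28226054 to 28226437). Its signal was 538, with 327 in replicate 1 and 213 in replicate 2, and it was number 250 of all optimal peaks. Numa1, a protein of the spindle poles, had 302 in replicate 1 and 225 in replicate 2 at a site inside a coding exon of 3360 bp. Pear1, a platelet receptor, had 299 and 208 with a best match of 9.94, under the threshold. Tradd, the adaptor of the TNF receptor, had 297 and 192. Each of these was high in both replicates, and all 20 of the strongest were found in both. The same held for all 272 coding-exon peaks with an optimal signal of 231 to 538. Of the intronic peaks in the matching class of signal, 229.9 to 677, 6210 of 6211 were found in both. Presence in both replicates was therefore general among strong peaks and not particular to these 20.

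The remaining 16 of the 20 strongest had signals of 463 to 495 in the optimal list. They were Gramd4, Ccdc194, Srcin1, Dglucy, Nbeal2, Kif13a, Hook2, Nynrin, Dnaic1, Vsig10l, BC107364, Rsad1, Hip1r, Acpp, Arntl2 and Spata31d1d. Kif13a is a kinesin motor, Dnaic1 a dynein chain of cilia, Nbeal2 a protein of platelet granules and Arntl2 a circadian transcription factor. Of the 20, 18 lay in internal and 2 in last coding exons. All but Pear1 and Rsad1 carried the motif, and Rsad1 scored 10.1.

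Coding-exon peaks were found in both replicates in 1035 cases, or 85.1% (exact Clopper-Pearson 95% interval 83.0 to 87.1), against 84.2% of intronic peaks. A peak counted as found when a summit lay within 100 bp among the 74283 strongest of the replicate. Over all optimal peaks the share was 83.2%, so the coding-exon share was near the background. An overlapping conservative peak was present for 89.6% (interval 87.7 to 91.2), against 89.7% of intronic peaks and 88.8% of all optimal peaks. Read depth is not given in the lists and is unknown, and all intervals here cover counting error only.

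The replicates were less alike for coding-exon peaks than these shares show. Among the 74283 strongest peaks of each, replicate 1 alone held 100 of them and replicate 2 alone held 35, while for intronic peaks the counts were 1636 and 1550. Coding-exon peaks were found in replicate 1 in 93.3% (interval 91.8 to 94.7), against 90.3% of intronic peaks, and in replicate 2 in 88.0% (86.0 to 89.8), against 90% of intronic peaks. Among those in both, 61.4% ranked higher in the replicate 1 list (interval 58.3 to 64.3), against 44.1% of intronic peaks (43.5 to 44.8). The median log2 ratio of replicate 1 over replicate 2 signal was 0.54 with an SD of 0.40 among coding-exon peaks, and 0.39 with an SD of 0.36 among intronic peaks. Across the 1035 peaks the signals had a Spearman rho of 0.952, a description of peaks that share libraries.

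Base composition moved with this ratio. Coding-exon peaks with under 45% GC within 50 bp of the summit had a median log2 ratio of 0.27, the same as intronic peaks of that composition at 0.27. At over 65% GC the ratio was 0.87 for coding-exon peaks and 0.61 for intronic peaks. Coding-exon peaks had a median GC content of 58.4% and 3 CpG dinucleotides per window, against 50.5% and 1 for intronic peaks. The part of GC content in the difference between the replicates was not tested.

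Kcng2 and Sarm1 were among the 3 largest ratios between replicates. Kcng2, a potassium channel subunit, had 44.8 in replicate 1 and 9.0 in replicate 2. Sarm1, which acts in axon degeneration, had 72.9 in replicate 1 and 17.6 in replicate 2. Both were higher in replicate 1, and their windows had 66.3% and 68.3% GC.

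**Figure D2:**
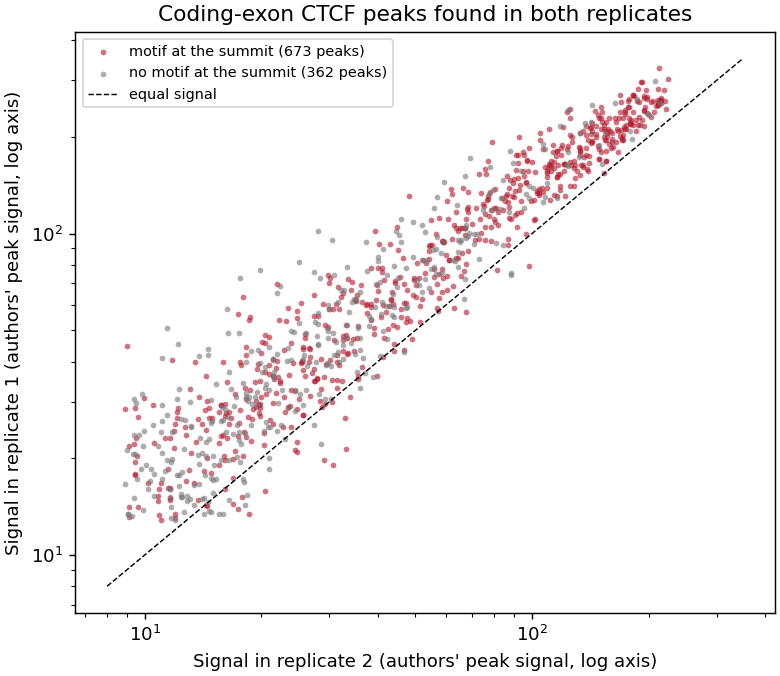
Signal in replicate 1 (vertical axis) against replicate 2 (horizontal axis), both log axes, for the 1035 coding-exon peaks found in both, coloured by whether the summit had a CTCF motif. The dashed line marks equal signal, and 987 peaks lie above it.

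The CTCF motif was present within 50 bp of the summit in 742 coding-exon peaks, or 61.0% (interval 58.2 to 63.8), against 73.3% of intronic peaks (72.8 to 73.8) and 67.0% of all optimal peaks. A window held the motif when its best match on either strand scored at least 10.6 bits, a level met by 1% of random windows of that length. Windows 1 kb away from the coding-exon peaks met it in 1.07%. The share was lower than in introns at every level of signal. In the strongest 25% of the optimal list it was 87.1% of coding-exon peaks and 93.0% of intronic peaks, and in the weakest 25% 38.9% and 54.1%. The widest gap, 62.7% against 80.1%, was in the second 25%. Of the coding-exon motifs, 75.9% were centred within 10 bp of the summit, against 77.8% in introns.

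**Figure D3:**
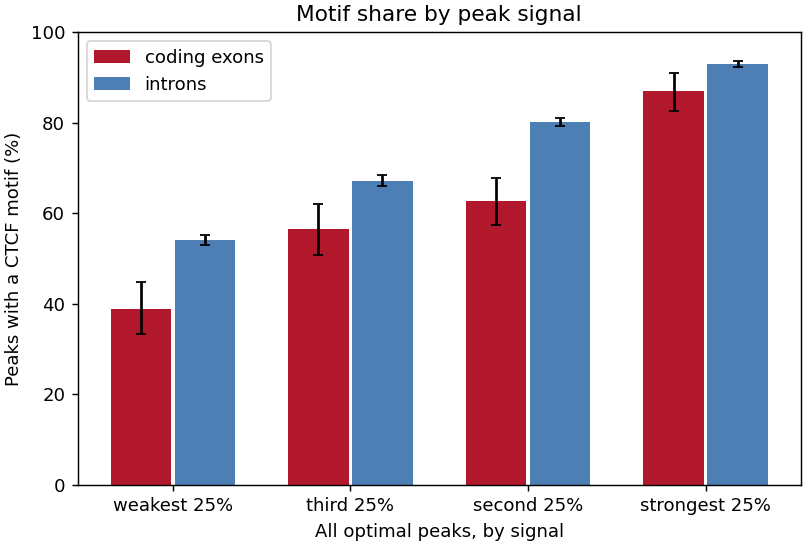
Share of peaks with a CTCF motif (vertical axis, %) in successive 25% classes of the optimal list by signal, for coding-exon peaks (red) and intronic peaks (blue), with exact 95% intervals. The share was 38.9% against 54.1% in the weakest class and 87.1% against 93.0% in the strongest.

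GC content moved with the motif share as well. Coding-exon peaks with under 45% GC held the motif in 78.2% of cases (interval 65 to 88.2), against 79.7% of intronic peaks. With 45 to 50% GC the shares were 68.8% (59.9 to 76.8) and 76.1% (75.1 to 77.1). With 50 to 55% GC they were 67.2% (60.9 to 73.2) and 73.6% (72.6 to 74.6), lower in coding exons in both, with intervals that overlap. Coding-exon peaks with 60 to 65% GC held the motif in 58.6%, against 59.6%, and those over 65% in 50.5%, against 49.7%. Between 55 and 60% GC the shares were 59.6% (53.9 to 65.1) and 68.7% (67.3 to 70.0), the interval where the classes stood furthest apart. The GC-rich intervals held a larger part of the coding-exon peaks, 18.1% being over 65% GC, against 1.44% of intronic peaks.

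Coding-exon peaks without the motif were weaker than those with it, with a median signal of 50 against 116. They were found in both replicates in 76.4%, against 90.7% with the motif. Intronic peaks had the same order, with a median signal of 39.7 without the motif against 104 with it. Of those, 70.8% and 89.0% were found in both replicates. Some coding-exon peaks without the motif were strong in both replicates. Vwf, the von Willebrand factor of endothelium and platelets, had a peak of 262 in replicate 1 and 187 in replicate 2 with a best match of 5.74. Arhgef18 had 233 and 201 with a best match of 0.953.

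Starts of transcripts of any kind lay near many coding-exon peaks, although none was within 2 kb of the start of a coding gene. A start in the annotation was within 1 kb of 23.0% of the peaks without the motif and of 20.1% with it, against 6.14% and 5.38% of intronic peaks. The share of all available coding sequence that lies this near such a start was not measured. The higher shares therefore cannot be read as a trait of the peaks. When the distances were applied to every transcript of coding genes, 691 coding-exon peaks met them. Of these 691, 63.4% had the motif, against 73.1% of intronic peaks chosen in the same way, and their median signal was 82.2 against 72.4.

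CTCF peaks were denser in coding sequence than in introns. There were 48.7 per Mb over the 25 Mb of coding sequence that met the distances, 30.7 per Mb in introns and 17.6 per Mb outside coding genes. The strongest peaks of each replicate gave 50.8 and 47.0 per Mb in coding sequence for replicates 1 and 2, and 30.3 and 31.1 in introns. The order turned round when sequence of like composition was compared. With 45 to 50% GC the density was 26.4 in coding sequence and 41.5 in introns, and with 55 to 60% it was 67.4 and 97.4. Over 65% GC alone was it higher in coding sequence, with 258 against 146 per Mb. These intervals of GC were chosen after the overall densities were seen.

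**Figure D4:**
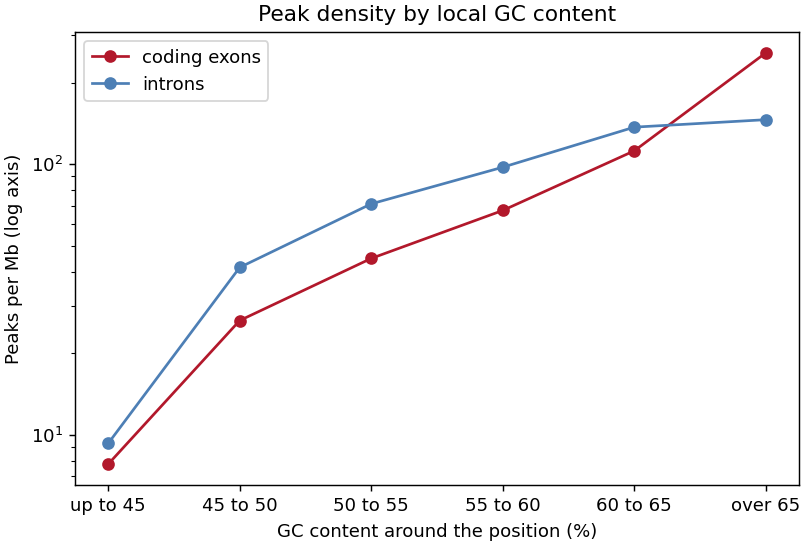
Peaks per Mb of sequence that met the distances (vertical log axis) by GC content of the surrounding window, for coding sequence (red) and introns (blue). Coding sequence lies below introns in the 5 intervals up to 65% GC and above them over 65%, at 258 against 146 per Mb.

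Whether a motif match had a peak was measured over the whole reference. Of 4109 matches in coding sequence, 710 had an optimal summit within 50 bp, or 17.3% (interval 16.1 to 18.5), against 17.3% in introns, 13.1% outside coding genes and 16.3% of all matches. Above 12 bits, matches in coding sequence had a peak more often than intronic matches of like score. Between 10.6 and 12 bits, the class with most matches, the shares were 5.00% (4.04 to 6.11) in coding sequence and 4.57% (4.36 to 4.77) in introns, and the intervals overlap. Between 12 and 14 bits they were 14.5% (12.7 to 16.5) and 10.4% (10.1 to 10.8). Between 14 and 16 bits the shares were 27.2% (23.7 to 31.1) and 16.2% (15.8 to 16.7). Between 16 and 18 bits they were 59.7% (53.1 to 66) and 47.7% (46.7 to 48.6), and over 18 bits 89.4% (83.1 to 93.9) and 79.5% (78.6 to 80.4). Each replicate gave the same order over 18 bits, with 87.2% and 87.9% in coding sequence and 79.6% and 79.3% in introns. Strong matches were fewer in coding sequence, with 5.64 per Mb over 18 bits against 8.39 per Mb in introns. CpG in the match, where DNA can be methylated, went with more peaks in both. With CpG the shares were 26.7% in coding sequence and 27.5% in introns, against 11.6% and 15% with no CpG. Split this way, coding sequence was not above introns in either class. A CpG was held by 1548 of the 4109 matches in coding sequence and by 21687 of 115903 in introns. Score and CpG were not combined, and the part of CpG in the difference at like score was not tested.

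**Figure D5:**
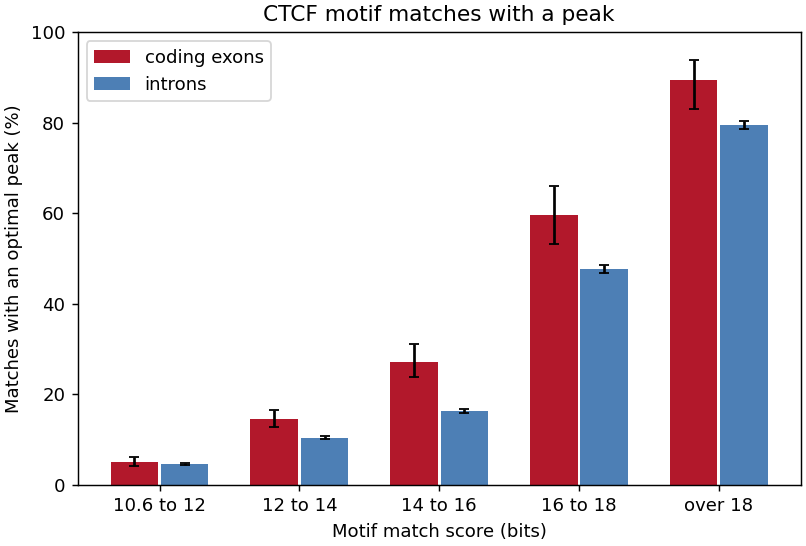
Share of motif matches with an optimal peak within 50 bp (vertical axis, %) by match score in bits, for coding sequence (red) and introns (blue), with exact 95% intervals. The share reached 89.4% in coding sequence and 79.5% in introns over 18 bits.

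The direction of the match relative to the gene was compared between matches with and without a peak. Of the 630 matches with a peak that lay whole in 1 coding exon, 44.3% read along the coding strand (interval 40.4 to 48.3), against 49.0% of 3000 matches without a peak. A peak was present at 16% of matches along the coding strand (14.3 to 17.8) and 18.7% of those against it (16.9 to 20.5), and these intervals overlap. Reading frame was counted as the codon position of the first base of the match in coding direction. Matches along the coding strand lay unevenly over the frames, with 900 at position 3, 603 at position 1 and 246 at position 2. They had a peak in 17.2%, 16.3% and 10.6% (7.02 to 15.1) at these positions. Against the coding strand, position 2 was also the lowest, at 14.6% (11.8 to 17.7), while position 1 had 20.5% and position 3 had 20.4%.

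Exon edges gave a further class of match. In all, 678 matches crossed an edge between a coding exon and an intron, and 132 of them (19.5%, interval 16.6 to 22.7) had a peak. The splice acceptor, where the intron ends in AG, held 252 of them along the coding strand. In 182 of the 252, the intron ended at base 10 of the match, so that the AG of the consensus was the AG of the acceptor. A peak was present at 25% of the matches along the coding strand at acceptors (19.8 to 30.8) and at 12.4% of those at donors (6.76 to 20.2), and these intervals overlap. Against the coding strand the shares were 16.9% at acceptors (11.9 to 22.9) and 18.3% at donors (11.9 to 26.1). The 3 strongest coding-exon peaks of this kind are shown on the coding strand with the match in capitals, and the exon starts at base 32 of each run.
Hip1r: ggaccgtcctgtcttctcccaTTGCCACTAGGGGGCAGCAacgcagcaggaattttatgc
Arntl2: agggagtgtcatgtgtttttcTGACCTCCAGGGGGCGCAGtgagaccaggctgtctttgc
Npas1: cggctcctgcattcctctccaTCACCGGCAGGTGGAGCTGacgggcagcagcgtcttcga
They lie in mm10 at chr5:124000961-124001020 (plus strand), chr6:146825136-146825195 (plus) and chr7:16463388-16463447 (minus). Hip1r, which links clathrin coats to actin, reached 255 in replicate 1 and 212 in replicate 2. Arntl2 had 244 and 222, and Npas1, a neuronal transcription factor, had 259 and 187.

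Internal coding exons held most coding-exon peaks but a smaller share of them than of the available sequence, and last coding exons a larger one. One reference transcript was taken per gene, and 1176 of the 1216 peaks lay in its coding exons. Internal coding exons held 915 (77.8%, interval 75.3 to 80.2), against 81.2% of the available sequence. Density was 46.4 per Mb in internal, 58.7 in last and 60.1 in first coding exons. Last coding exons held 179 (15.2%, 13.2 to 17.4), against 12.5%, and first coding exons 49 (4.17%, 3.10 to 5.47), against 3.35%. Genes with a single coding exon held 33 (2.81%, 1.94 to 3.92), against 2.91%. The distance limits remove most first and many last exons, so these shares hold for what remains. The motif was present in 63.8% of peaks in internal exons, 53.1% in last, 51.0% in first and 36.4% in single coding exons.

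Among internal exons the density was 39.8 per Mb in exon 2 and between 40.2 and 42.2 in exons 3 to 5. It was 50.1 in exons 6 to 10, 52.7 in exons 11 to 20 and 42.3 in exons 21 to 40. The exons that held a peak had a median length of 179 bp, against 126 bp for all exons with available sequence and 173 bp when these were weighted by length. Summits under 20 bp from an exon edge made up 22.8% (interval 20.4 to 25.3), against 24.0% of the sequence. The first 50% of the coding sequence held 42.4% of the peaks (39.6 to 45.3), against 47.3% of the sequence.

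Coding-exon peaks lay in 1106 of 16978 genes with available coding sequence. There were 1004 genes with 1 peak, 94 with 2 and 8 with 3. Among the 8, Cul9, a cullin of ubiquitin ligases, had peaks in coding exons 13, 27 and 18 of 40, with 257, 140.4 and 70.7 in replicate 1 and 203, 125 and 40.4 in replicate 2. Sptbn4, a spectrin of axons, had 187, 205 and 17.5 in replicate 1 and 124 and 105 in replicate 2, where the weakest of its 3 sites was not among the 74283 strongest peaks and had 5.16 in the full list. The first 2 sites of Cul9 and of Sptbn4 were thus strong in both replicates.

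Long structural genes were also among the hosts with 3 peaks, beside shorter genes. Syne1, which links the nucleus to the cytoskeleton, had optimal signals of 218, 125 and 70.9 in coding exons 46, 54 and 76 of 145. Ttn, the giant protein of the muscle sarcomere, had 99.9, 58.9 and 46.3 in coding exons 43, 304 and 145 of 312, each with the motif. Nrp2, a receptor for semaphorins and VEGF, had 194, 102 and 54.5, each with the motif. Tchh, a protein of the hair follicle, had 80.0, 64.6 and 44.5 in its last coding exon. Kbtbd11 had 53.7, 33.8 and 23.0 in its single coding exon. The strongest Tchh peak and the weakest Kbtbd11 peak had no partner within 100 bp in the full replicate 2 list. Neither of them overlapped a conservative peak. No peak of Tchh or Kbtbd11 had the motif.

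Gene families differed in how much of their coding sequence held peaks. Over all genes the density was 50 per Mb of available sequence of the reference transcripts, and 6.51% of genes were hosts. Keratins and keratin-associated proteins had 9 hosts among 52 genes and 279.5 per Mb, from 10 peaks, most of them at the shared filament site. Potassium, sodium and calcium channels had 26 hosts among 164 genes and 79.4 per Mb, led by Kcnj9, a potassium channel of neurons, with 195 in replicate 1 and 105 in replicate 2. The ADAM, ADAMTS and ADAMTS-like family had 11 of 54 and a density above all genes, led by Adam11 with 140.1 and 98.2. Semaphorins and plexins, guidance cues and their receptors, had 7 of 29 and 89.7 per Mb, led by Sema3f with 229 and 125. Adhesion and orphan G protein-coupled receptors had 9 of 86 and the highest median signal of a family with over 5 peaks, 214, led by Adgrv1 with 251 and 212.

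Other families stood near or under the density of all genes. Zinc finger proteins had 19 hosts among 514 genes and 25.7 per Mb, led by Zfp523 with 222 in replicate 1 and 165 in replicate 2. Olfactory and vomeronasal receptors had 1 host among 234, Olfr1150-ps1, with 26.4 and 12.7. Mucins had 1 of 12, Muc5b, a secreted mucin, with 30.5 and 29.3. Solute carriers had 21 of 367 and 43.6 per Mb, led by Slc22a15 with 239 and 182. Chromatin modifiers had 11 of 116 and 34.8 per Mb, led by Kmt2a, a histone methyltransferase, with 174 and 140.2. The genes of CTCF and cohesin had 0 hosts of 23. Small families rest on a few peaks, and base composition of the families was not compared.

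Among further families, integrins had 6 hosts of 31 (19.4%, against 6.51% of all genes), led by Itgb7 with 240.3 in replicate 1 and 145 in replicate 2. Receptors with EGF repeats and LDL receptor relatives had 9 of 43 (20.9%), led by Lrp1, an endocytic receptor, with 212 and 157. Genes of the Wnt pathway had 7 of 54 (13%), led by Dvl2, which relays Wnt signals in the cell, with 89 and 45. Densities were 80.6 per Mb in integrins, 59.8 in the EGF repeat and LDL receptor group and 107 in Wnt genes.

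The remaining families are given with their strongest peak in the optimal list, beside the 6.51% of all genes that were hosts. Cadherins and other protocadherins had 11 hosts of 56, led by Pcdh17 with 259, and the clustered protocadherins had 1 of 53, Pcdhgc3 with 161. Collagens had 7 of 44, led by Col16a1 with 357, and laminins and other basement membrane genes had 4 of 15, led by Lama1 with 196. Myosins, dyneins and kinesins had 17 of 99, led by Kif13a. Receptor tyrosine kinases and phosphatases had 6 of 73 (8.22%), led by Ptprb, a phosphatase of vessels, with 403. Receptors of hormones and transmitters had 6 of 78 (7.69%), led by the prostaglandin receptor Ptger1 with 387. Homeobox genes had 6 of 100 (6.00%), led by Pitx3 with 365, and forkhead and SOX factors had 3 of 37 (8.11%), led by Sox8 with 390.4. Hedgehog pathway genes had 3 of 14, led by Kif7, a kinesin of the primary cilium, with 132. The shares of the homeobox, forkhead and SOX, hormone receptor and receptor kinase families were near that of all genes. Their densities were 90.2, 72.4, 91.8 and 31.4 per Mb, against 50 over all genes. Shares of hosts do not allow for the length of coding sequence. Collagens, laminins and the motor proteins had 38.3, 43.9 and 40.7 per Mb, under all genes despite larger shares of hosts. Cadherins had 68.4, clustered protocadherins 30.8 and hedgehog genes 104 per Mb.

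Lists of genes that mark cell types of the stomach held 1 to 5 hosts each, and the share of hosts over all genes was 6.51%. The glandular epithelium list had 4 of 32 genes (12.5%). Foxa1, a transcription factor of gut endoderm, had 89.8 in replicate 1 and 41.2 in replicate 2. Pgc, which encodes a pepsinogen, had 36.9 and 37.1, and Slc26a9, an anion transporter, had 36.9 and 27.1. Atp4a, the catalytic subunit of the gastric proton pump, had 35.6 and 27.9 at the stronger of its 2 peaks. None of these was among the strong sites, and Slc26a9 and Atp4a carried the motif.

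The forestomach squamous epithelium list had 5 hosts of 18 genes (27.8%). Klf5, a transcription factor of proliferating epithelium, had 78.7 in replicate 1 and 64.3 in replicate 2, with no motif. Krt5 and Krt4 carried the filament site described above. Evpl, a protein of the cornified envelope, had 29.2 and 11.1, also with no motif. The mesenchyme and smooth muscle list had 2 of 32 (6.25%), Des and Gli1, and Gli1, the transcription factor of hedgehog signalling, had 8.94 in replicate 2 and was not among the 74283 strongest of replicate 1, whose full list gave it 10.5. The enteric neuron and glia list had 1 of 21 (4.76%), Gfap. The blood and endothelium list had 4 of 26 (15.4%), with Vwf the strongest, followed by Flt4, a VEGF receptor of lymphatic vessels, with 119.9 and 80.0. Robo4, an endothelial guidance receptor, had 69.2 and 50.1, and Ptprc, the leukocyte antigen CD45, had 24.3 and 20.3.

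The X chromosome held few coding-exon peaks, 8 in all, at 9.04 per Mb of available coding sequence. Densities of intronic peaks and of all optimal peaks by chromosome were not measured. The low value on X therefore cannot be read as a trait of coding-exon peaks. Among autosomes, chromosome 16 was lowest with 35.3 per Mb and chromosome 11 highest with 67.7. Another optimal summit lay within 1 kb of 12% of coding-exon peaks, against 8.15% of intronic peaks and 13% of all optimal peaks.

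At the distance limits, the coding-exon peaks just inside were in Apold1, 2011 bp from a gene start with a signal of 360.0, and in Six5, 1005 bp from a gene end with 22.2. The peaks just outside were in Zfp575, 1996 bp from a gene start with a signal of 42.4, and in Tmem143, 991 bp from a gene end with 59.5.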

How the data were processed

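The 4 peak lists of CTCF ChIP-seq in mm10 coordinates gave all values. Per the descriptions deposited with the samples, the optimal and conservative lists came from IDR on replicates 1 and 2, and the relaxed list of each replicate came from its alignment and a control alignment. Aligner, peak caller and threshold of IDR were not given in the sources used here. Signal is the deposited peak-caller value. The deposited −log10 q-value ran from 0.414 to 5.12 in the coding-exon peaks. Each list held the offset of the summit.

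Genes came from GENCODE M21 and sequence from the RefSeq copy of the same assembly. One transcript per gene was chosen by APPRIS level, basic tag and coding length. The 10 optimal peaks on unplaced scaffolds were left out. For the motif, a matrix with 19 positions was made from chromosome 1, with its 1000 strongest peaks outside coding sequence (981 alignable). Overlapping matches were reduced to the best, giving 314616. Shares have exact Clopper-Pearson 95% intervals, and no test was run, since there was 1 group. Scripts used scipy 1.17.1, pandas 2.3.3, matplotlib 3.10.9, numpy 2.4.6 and numba 0.67.0 under Python 3.11.15, and the peak rule, motif search and frames were tested on simulated data.

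The definition of these peaks, the families and the lists were chosen with earlier results of these data known. Named genes were the 20 strongest, hosts with 3 peaks, the strongest of each family, up to 4 hosts of each stomach list, the weakest peak, those at the distance limits and the 3 largest replicate ratios. A few loci and sequences within these choices are not reported here. Strong peaks without the motif, the shared sites, the acceptor examples and the filament genes without a peak were named after their values were seen.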

Additional observations from a re-analysis of the deposited data

Results flagged for a closer look

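Peaks of the relaxed replicate lists that no comparison above used carried the motif above the level of control windows. In coding exons under the same distances, 827 relaxed peaks of replicate 1 had a partner in replicate 2 within 100 bp and no optimal summit within 300 bp. Of these, 182 (22.0%, exact Clopper-Pearson interval 19.2 to 25) had the CTCF motif at the summit, against 16 (1.93%, interval 1.11 to 3.12) of windows 1 kb away.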

How the results depend on the processing

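Of 64 alternative values, 49 stayed within the interval or range set for the main value and 15 moved. The range for counts was wide. It took in the 1555 peaks at distances of 1 kb and 0.5 kb and the 844 at 5 kb and 2 kb. For the ratio of median signal the range was the SD of the ratios in the single-replicate lists, which were themselves among the alternatives. The number of coding-exon peaks was 623 in the stronger 50% of the optimal list, 2649 when any overlap with coding sequence counted and 691 with the starts and ends of every transcript, against 1216. The ratio of median signal, coding exons over introns, was 1.09. It was 1.18 at distances of 5 kb and 2 kb, 1.13 with every transcript (an alternative chosen after seeing the data), 0.916 in the stronger 50%, and 1.01 to 1.07 in the lists of single replicates. The share found in both replicates was 97.9% in the whole relaxed lists. The motif share was 64.0% at 5 kb and 2 kb, 73.4% in the stronger 50% and 16.1% at the threshold met by 0.1% of random windows, at which 82.5% of matches in coding sequence had a peak. Internal exons held 69.3% at distances of 1 kb and 0.5 kb and 87.1% at 5 kb and 2 kb. Density was 24.9 per Mb in the stronger 50%, which holds fewer peaks by construction. The cause of the other shifts was not tested. No paired analysis was possible because there was 1 group. Read depth is unknown, so the weakest sites cannot be set against sampling error. The labels give both replicates the same donor and tissue sample, and the intervals cover counting error only, not variation between animals.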
